A study of Rattus norvegicus with 11 samples.

Results

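The immunoglobulin heavy chain locus of the rat lies near the end of chromosome 6, and its transcripts were followed in peripheral white blood cells (WBCs) of normal and arthritic rats. The members were the rows of the deposited gene table on chromosome 6 that start between positions 138000000 and 146500000 and hold at least 50 counts summed over the 11 samples, without the rows described as other genes. Of 32623 rows in the table, 137 start in this window, 100 of these reached the count minimum, 14 of the 100 were set aside by their description, and 86 remained. These 86 are 3 constant genes (Ighm, Igh-6 and Ighg1), 74 rows taken here as variable segments, and 9 rows without a description or a gene ontology term, of which 8 are listed as lincRNA and 1 as miRNA. The variable rows carry no description and were recognised by gene ontology terms for antigen binding or complement activation. The members were thus chosen by position, description and counts summed over all samples, with earlier results of these data known. Just outside the minimum lie rows of 42, 44 and 45 counts, and just inside it lie rows of 52, 55 and 63 counts. A further 33 rows of the window that were not set aside fell under the minimum, 16 of them with no count in any sample.

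The samples came from male Wistar rats, 7 weeks old when the experiment began. Collagen-induced arthritis (CIA) was raised by type II collagen in incomplete Freund's adjuvant with a repeat injection on day 7, and WBCs were taken from orbital venous blood after red cells had been lysed. The 4 CIA rats were each sampled at a status of high Nampt expression (Nampt++, 4 samples, about day 8) and again at lower Nampt expression (Nampt+, 4 samples, about day 14), and 3 untreated healthy rats gave the control samples. The authors assigned the statuses by their own PCR of Nampt, so status and day of disease cannot be told apart. Whole blood leukocytes are a mixture, and in bulk RNA fewer cells of a type and less RNA per cell cannot be told apart.

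A heavy chain transcript joins a rearranged variable region, made from a variable, a diversity and a joining segment, to a constant region that sets the antibody class. Naive B cells transcribe the mu constant gene, and activated B cells can switch to a gamma, epsilon or alpha gene by recombination, after which the same variable region is carried on a new class. Each clone of B cells or plasma cells carries a particular rearranged variable segment, so the levels of these segments in blood can reflect both the inherited set of segments and the clones that are abundant.

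Total counts per sample ranged from 65340027 to 85819418. Haemoglobin genes took 6.84% to 42.8% of the counts, with Nampt++ 1 and Nampt+ 2 at the ends, so shares are given of all counts and of the counts outside haemoglobin. The extraction text deposited with the samples refers to eye tissue, against the sample source and the study's methods. Transcripts of blood leukocytes were abundant in each sample, with summed FPKM of 10 neutrophil genes from 2222 to 40462 and of 19 B cell genes from 293 to 1159. FPKM is the number of fragments of a gene scaled by transcript length and by the size of the library. Control 3 had the highest B cell sum, and the other 10 samples lay between 293 and 603.

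Libraries that carry the same rat number did not look alike in every case. Segment use was compared over 45 variable heavy chain rows with at least 500 counts, as the log2 share of the variable counts centred on the mean of the 11 samples. The correlation across these rows between the samples of a rat was 0.36 for rat 1, 0.38 for rat 2, 0.38 for rat 3 and 0.67 for rat 4, and the 12 pairs of different rats lay between -0.73 and 0.75 with a median of -0.16. Nampt++ 1 was most like Nampt+ 2, at 0.75, and Nampt++ 2 was most like Nampt+ 3, at 0.68, while Nampt++ 3 and Nampt++ 4 were most like the later sample of their own rat. In 45 light chain rows with at least 500 counts, those over 50000 left out, the same measure was -0.38 for rat 1, 0.70 for rat 2, 0.83 for rat 3 and 0.57 for rat 4. Here Nampt++ 1 was again most like Nampt+ 2, at 0.60, Nampt++ 3 and Nampt+ 1 were at 0.55, and each of the other 3 Nampt++ samples was most like the later sample of its own rat. The rows of a library share its depth and cells, so these values are descriptions. Of 4 light chain rows that had at most 1 count in some samples and at least 30 in all others, rat 1 differed in 2. ENSRNOG00000047836 had 0 counts in Nampt++ 1 and 84 in Nampt+ 1, and ENSRNOG00000060746 had 0 and 66, while for rats 2, 3 and 4 both samples of a rat were on the same side in all 4 rows. Whether libraries with the same rat number came from the same animal was not tested, for rat 1 or for the others. The comparisons with controls do not use the rat numbers, and the comparison of Nampt+ with Nampt++ samples is given below with and without rat 1.

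The levels of the constant genes differed widely. Ighm encodes the constant region of IgM, the class of naive B cells. Its FPKM was 261, 123 and 515 in controls 1 to 3, 244, 271, 189 and 207 in Nampt++ samples 1 to 4, and 261, 154, 308 and 215 in Nampt+ samples 1 to 4. Control 3 was the highest and control 2 the lowest sample, so the controls enclosed every CIA sample. Igh-6, described as immunoglobulin heavy chain 6, had an FPKM of 87.97, 67.9 and 304 in controls, 192, 177, 149 and 101 in Nampt++ samples, and 73.4, 173, 175 and 80.2 in Nampt+ samples. Here too control 3 was the highest and control 2 the lowest sample. Ighg1, the constant region of IgG1 and a class made only after switching, had an FPKM of 6.83, 3.02 and 5.73 in controls, 16.1, 22.0, 14.9 and 25.7 in Nampt++ samples, and 30.1, 15.4, 12.8 and 10.4 in Nampt+ samples. All 8 CIA samples lay above all 3 controls, and the Nampt++ and Nampt+ samples overlapped.

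**Figure D1:**
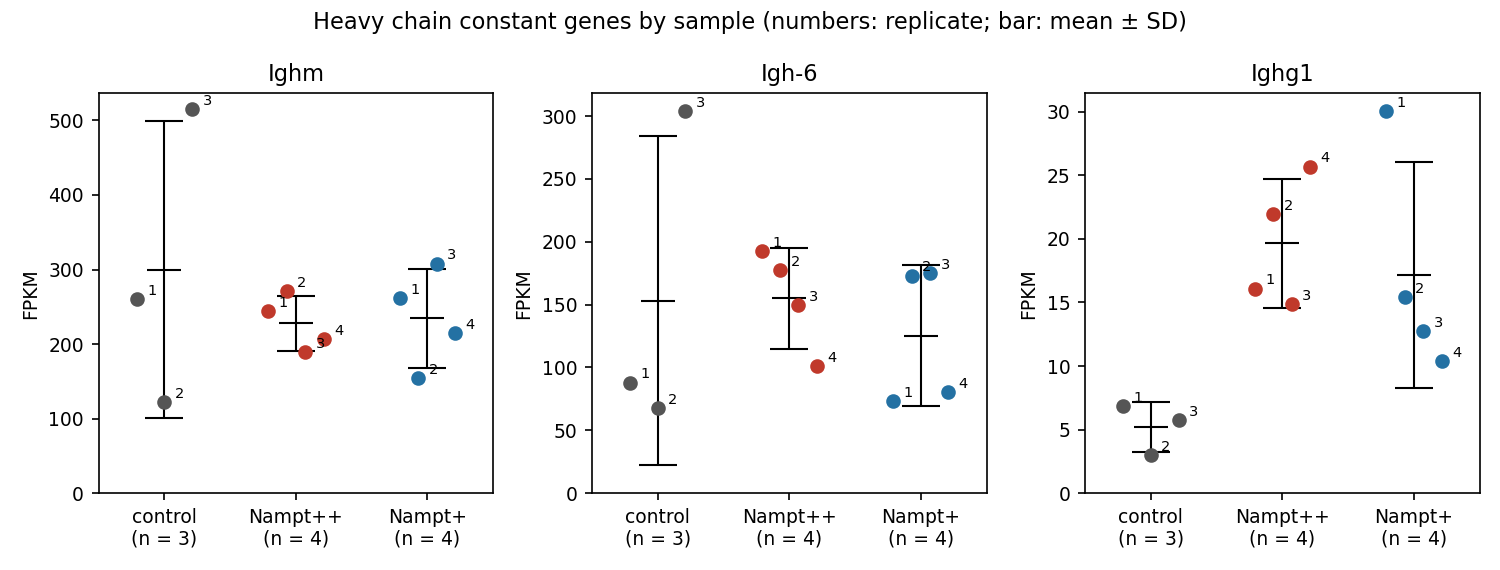
Deposited FPKM of Ighm, Igh-6 and Ighg1 (vertical axes, linear from 0) in 3 control, 4 Nampt++ and 4 Nampt+ samples, with points numbered by replicate and bars for the mean ± SD of the group. For Ighg1 all CIA samples sit at or above 10.4 and all controls at or below 6.83, whereas for Ighm and Igh-6 the controls span the CIA samples.

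Positions below are those of the deposited table, whose genome build is not given in the sources used here. The 3 constant genes are on the minus strand of chromosome 6. Ighm (ENSRNOG00000034190) is listed from 138054662 to 138662365, a span of 607.7 kb that encloses 7 other members on the same strand, namely Igh-6 (ENSRNOG00000048402, 138092131 to 138093643), 5 variable rows and 1 row without annotation. How reads in these overlaps were divided is not known. Ighg1 (ENSRNOG00000030332) is listed from 139140679 to 139142218, among variable rows. No member carries a symbol for the delta, epsilon or alpha constant gene or for another gamma gene, and these were not analysed here. The variable rows are listed from 138535670 to 143702033, with 63 on the minus strand and 11 on the plus strand. The 11 lie in a block from 139158334 to 139560489 that holds no variable row of the minus strand. Of the 74 variable rows, 67 span less than 1000 bases and 1 is listed as a pseudogene. They carry only 39 distinct names, up to 7 rows to a name, so each is called by its identifier. Near-identical segments may share reads, and values of single variable rows are uncertain to that extent.

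Compared with controls, Nampt++ samples had higher Ighg1 and no detected difference in the other constant genes. Mean Ighg1 FPKM was 19.7 ± 5.07 (SD, n = 4) at Nampt++ status. In controls it was 5.19 ± 1.96 (SD, n = 3), and the ratio was 3.78. By the study's thresholds, a gene was called where the mean FPKM of a group was over 2 times or under 0.5 times that of the other and the unadjusted p was below 0.05. The study also treated differences at low FPKM, under 10, as unreliable and dropped genes whose values conflicted within a group. These further limits were not applied here. Ighg1 was under an FPKM of 10 in all 3 controls and above it in every CIA sample. In edgeR's quasi-likelihood test the log2 fold change of Ighg1 was 1.94 (SE 0.30) with an unadjusted p of 0.000183, the smallest among the 15968 genes tested, and the Benjamini-Hochberg adjusted p was 1. The two-sided exact permutation test of log2(FPKM + 1) gave p = 0.0286 for Ighg1, the smallest value that 4 samples against 3 allow. In DESeq2 the adjusted p for Ighg1 was 9.67e-06, with a log2 fold change of 1.95, and over all 19 alternatives the adjusted p ranged from this value to 1. For Ighm the log2 fold change was -0.27 (SE 0.36) and for Igh-6 it was 0.18 (SE 0.44). The exact permutation p values were 0.743 and 0.657, so no difference was detected with these few samples.

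Nampt+ samples also had higher Ighg1 than controls, with a mean FPKM of 17.1 ± 8.87 (SD, n = 4) and a ratio of 3.30. The log2 fold change was 1.86 (SE 0.48) with an unadjusted p of 0.00425 by edgeR's quasi-likelihood test, rank 12 of 15968 genes, and a Benjamini-Hochberg adjusted p of 1. The exact permutation p was 0.0286. For Ighm the log2 fold change was -0.22 (SE 0.35) and for Igh-6 it was 0.05 (SE 0.60), with exact permutation p values of 0.886 and 0.914. Both comparisons use the same 3 controls. Leaving out any sample kept Ighg1 past the thresholds in both, with log2 fold changes from 1.79 to 2.20 for Nampt++ and from 1.58 to 2.13 for Nampt+ samples.

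Between Nampt+ and Nampt++ samples no constant gene was called. The log2 fold change of Ighg1 was -0.07 (SE 0.39), with an exact permutation p of 0.486, and the sign-flip permutation over rats, whose smallest p is above 0.05 with 4 rats, gave an exact p of 0.625. By rat number, Ighg1 was higher in the later sample in 1 of 4 rats, rat 1, where the FPKM was 16.1 and then 30.1. In rats 2, 3 and 4 it was 22.0 and then 15.4, 14.9 and then 12.8, and 25.7 and then 10.4. With both samples of rat 1 left out the comparison rests on these 3 rats, all of them lower in the later sample, and the log2 fold change of -0.44 was again not called. Igh-6 was lower in the later sample in 3 of 4 rats and Ighm higher in 3 of 4. The exact permutation test, which ignores the rat, gave p values of 0.286 and 0.971. The sign-flip permutation over rats gave p = 0.375 for Igh-6 and no smaller value for Ighm.

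The difference in Ighg1 was also present relative to other transcripts of the B lineage. Ighg1 FPKM per 100 FPKM of Ighm was 2.62, 2.46 and 1.11 in controls, 6.59, 8.10, 7.87 and 12.4 in Nampt++ samples, and 11.5, 10.01, 4.14 and 4.83 in Nampt+ samples. All CIA samples were above all controls, and Nampt+ samples 3 and 4 were the lowest of the CIA samples. Ighg1 counts per 1000 counts of the 19 B cell genes were 6.11, 5.11 and 2.63 in controls, 16.9, 21.7, 16.7 and 28.5 in Nampt++ samples, and 25.3, 24.2, 10.3 and 9.87 in Nampt+ samples. Per 1000 counts of 13 plasma cell genes the controls ranged from 9.35 to 16.5, Nampt++ samples from 29.0 to 64.6 and Nampt+ samples from 22.6 to 71.7. As a percentage of light chain counts, Ighg1 took 0.320 to 0.648 in controls, 1.47 to 2.85 in Nampt++ and 0.842 to 2.58 in Nampt+ samples. As CPM, the counts scaled to library size, and with haemoglobin genes left out of that size, it ranged from 4.45 to 9.97 in controls, from 17.6 to 35.3 in Nampt++ and from 12.5 to 41.3 in Nampt+ samples. On each of these scales every CIA sample lay above every control. All of the scales use the same Ighg1 reads, so they are not independent of each other or of the FPKM above.

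**Figure D2:**
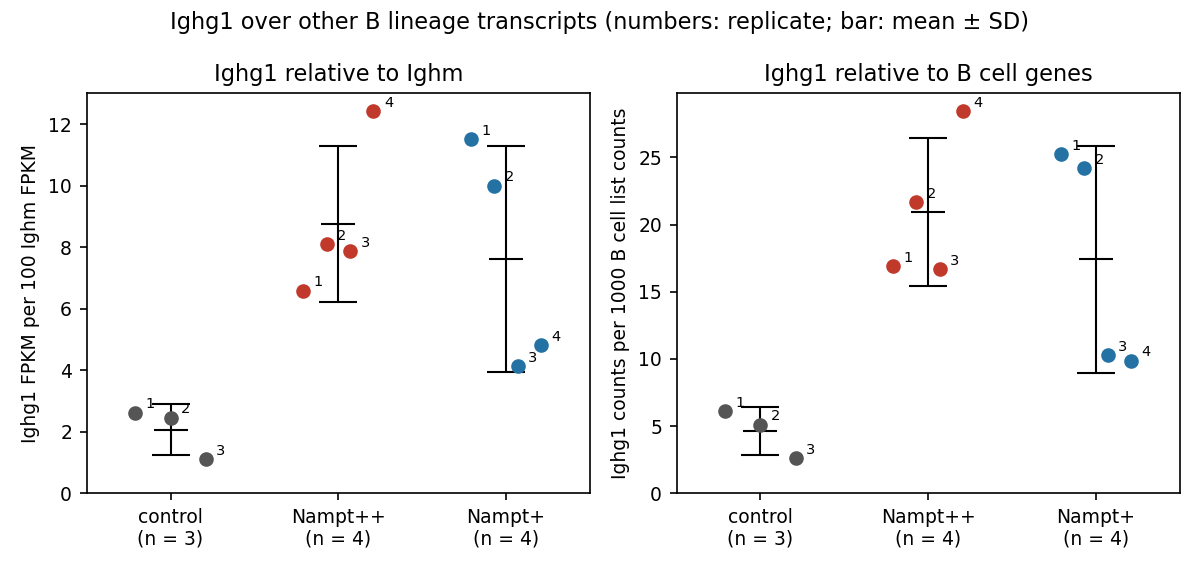
Ighg1 relative to Ighm (left, FPKM per 100 FPKM of Ighm) and to 19 B cell genes (right, counts per 1000 counts of the list) in 3 control, 4 Nampt++ and 4 Nampt+ samples, with points numbered by replicate and bars for the mean ± SD. The controls reach at most 2.62 on the left and 6.11 on the right, and the lowest CIA samples are 4.14 and 9.87.

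The summed counts of the heavy chain rows overlapped between the groups. They took 0.222%, 0.107% and 0.447% of all counts in controls, 0.224%, 0.240%, 0.171% and 0.182% in Nampt++ samples, and 0.225%, 0.144%, 0.273% and 0.189% in Nampt+ samples. Control 2 was the lowest and control 3 the highest, as for Ighm. Outside haemoglobin the shares ranged from 0.155% to 0.534% in controls, from 0.198% to 0.383% in Nampt++ and from 0.222% to 0.334% in Nampt+ samples, again overlapping. Variable counts per 1000 constant counts were 53.8 to 71.2 in controls, 58.2 to 78.6 in Nampt++ and 64.7 to 88.2 in Nampt+ samples. Besides those of Ighg1, some ratios within the lineage did not overlap between groups, each by a narrow gap. They were picked from many ratios after the values were seen and given no test, so they are descriptions. Ighm held 92.3% to 95.2% of the constant counts in controls, 89.3% to 92.2% in Nampt++ and 85.5% to 94.8% in Nampt+ samples, so all Nampt++ samples were below all controls. Variable counts per 1000 counts of the B cell list were 101.7 to 128.8 in controls, 106.7 to 166.5 in Nampt++ and 131 to 141 in Nampt+ samples, with all Nampt+ samples above all controls. Igh-6 FPKM per 100 FPKM of Ighm varied more within groups, at 33.8, 55.4 and 59.0 in controls, 78.8, 65.5, 79.1 and 48.9 in Nampt++ samples, and 28.1, 113, 56.8 and 37.4 in Nampt+ samples.

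Calls over all members are set beside the share of all tested genes called. They include rows with few reads that passed the count minimum through CIA samples, described below. In Nampt++ samples against controls 6 of 86 members were called, 5 higher and 1 lower, where 1.42% of all tested genes were called, 0.645% higher and 0.77% lower. In Nampt+ samples against controls 7 were called, 5 higher and 2 lower, beside 1.17% of all genes, 0.501% higher and 0.67% lower. In Nampt+ against Nampt++ samples 1 was called, lower, beside 1.26% of all genes, 0.582% higher and 0.676% lower. Without control 3 the number of members called was 16 in Nampt++ and 13 in Nampt+ samples, beside 287 and 268 of the 15968 genes, where 226 and 187 genes were called with it. Of these members, 12 and 11 were rows on the constant gene side of the locus, the proximal part described below, and all of them were higher. With the rat as a replicate block 0 were called between the CIA groups, beside 101 of all genes. With both samples of rat 1 left out 1 was called, higher, beside 280 genes. No member had a Benjamini-Hochberg adjusted p under 0.05 in edgeR's quasi-likelihood test in any comparison, and 7, 7 and 1 members had an unadjusted p under 0.05 in the order above, beside 2.05%, 1.45% and 2.42% of all genes. DESeq2 gave 1 member, Ighg1, with an adjusted p under 0.05 in Nampt++ samples against controls and 0 in the other comparisons. Of all 15968 genes, DESeq2 gave 15, 8 and 10 in the order above. The median log2 fold change over members was 0.10, 0.05 and -0.11, beside -0.00065, -0.01 and -0.02 over all genes tested. Groups did not overlap in 3 members higher and 1 lower in Nampt++ samples against controls (0.795% and 0.958% of all genes), in 1 higher and 3 lower in Nampt+ samples against controls (0.369% and 0.67%), and in none between Nampt+ and Nampt++ samples (0.282% higher and 0.463% lower). The 9 rows without annotation, whose mean FPKM ranged from 1.23 to 10.5, gave no call in any comparison, with 0 unadjusted p values under 0.05.

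**Figure D3:**
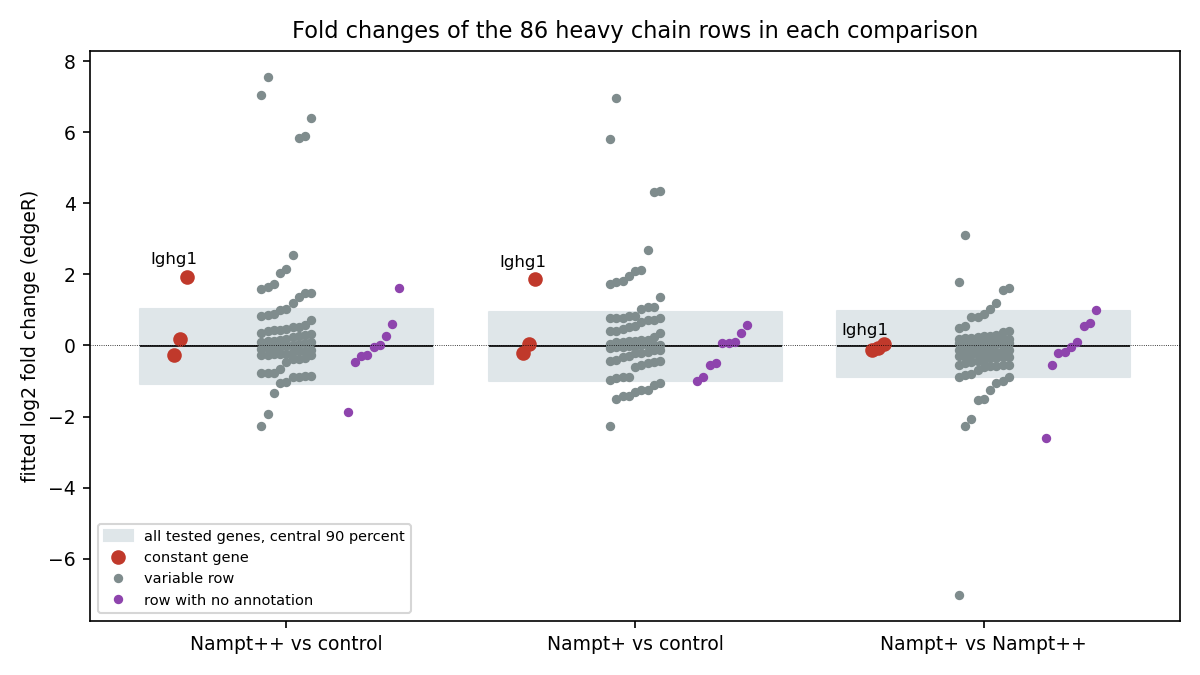
Fitted log2 fold changes (edgeR, vertical axis) of the 86 heavy chain rows in each comparison, with red points for constant genes, grey for variable rows and purple for rows without annotation, over a band for the central 90% of the 15968 genes tested and a line at their median. Ighg1 stands at 1.94, 1.86 and -0.07, and the variable rows farthest from 0 are rows with few counts that are at or near 0 in a group.

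Of the 9 variable rows called in a comparison, 4 rested on few reads. ENSRNOG00000046572 (138772045 to 138772894) had 0 counts in each control, 21, 52, 16 and 0 in Nampt++ samples and 15, 10, 35 and 0 in Nampt+ samples. It was at least 23.0-fold higher in Nampt++ and at least 16.4-fold higher in Nampt+ samples than in controls, taking 3 counts over the control group as the floor, and both samples of rat 4 were at 0 like the controls. ENSRNOG00000059929 (140805046 to 140805551) had 0 counts in each control, 19, 4, 0 and 6 in Nampt++ samples and 0, 6, 16 and 4 in Nampt+ samples, at least 7.51-fold and 7.10-fold higher. ENSRNOG00000049525 (142251680 to 142251976) had 2, 0 and 0 counts in controls, 147, 0, 12 and 31 in Nampt++ samples and 14, 23, 11 and 0 in Nampt+ samples, and was called in Nampt++ samples alone, although the difference between the CIA groups was not called. ENSRNOG00000043109 (142371639 to 142372031) had 31 and 32 counts in Nampt++ samples 1 and 2 and 0 in the other 9 samples. It was the member called between the CIA groups, at least 19.9-fold lower in Nampt+ samples. All 4 rows passed the count minimum through CIA samples, with at most 2 counts in the controls together, so their calls and bounds are descriptions and support nothing. ENSRNOG00000059929 and ENSRNOG00000043109, with totals of 55 and 63 counts, are also just inside the minimum. The calls also hung on single samples. ENSRNOG00000059929 was no longer called in 6 of 7 cases in which a sample was left out, in each comparison with controls. ENSRNOG00000043109 lost its call in 6 of 8 such cases, ENSRNOG00000049525 without control 2, control 3 or Nampt++ 1, and ENSRNOG00000046572 in Nampt+ samples without Nampt+ 3.

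The other called variable rows were expressed in all samples. ENSRNOG00000037495 (143590014 to 143590448), named beyond the set number of rows because it was called in both comparisons with controls, had an FPKM of 3.67, 3.97 and 5.22 in controls, 15.4, 16.4, 9.70 and 5.67 in Nampt++ samples, and 6.64, 4.62, 14.7 and 9.96 in Nampt+ samples. Its log2 fold change was 1.49 (SE 0.47) and 1.02 (SE 0.35). All Nampt++ samples were above the controls, and Nampt+ 2 fell within their range. The call in Nampt++ samples held without any 1 sample, and that in Nampt+ samples was lost without control 1 or Nampt+ 3. ENSRNOG00000033376 (141198248 to 141198565) had an FPKM of 13.1, 4.404 and 6.61 in controls and of 32.1, 3.62, 33.9 and 20.2 in Nampt+ samples, a ratio of 2.79 with Nampt+ 2 below all controls, and kept its call in only 2 of 7 cases with a sample left out. ENSRNOG00000055620 (140406876 to 140407307) had an FPKM of 59.4, 10.4 and 10.96 in controls, 1.46, 9.54, 7.68 and 9.57 in Nampt++ samples and 7.28, 1.73, 14.6 and 89.99 in Nampt+ samples. It was called lower in Nampt++ samples, at a ratio of 0.262, with control 1 far above the other controls. The call held in 3 of 7 cases with a sample left out and was lost without control 1, at a log2 fold change of -0.63, and without Nampt++ 1, 3 or 4.

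The 2 rows called lower in Nampt+ samples against controls kept their calls in few of the cases with a sample left out. ENSRNOG00000048425 (140879774 to 140880070) had an FPKM of 20.95, 10.9 and 41.2 in controls and of 13.5, 9.40, 12.5 and 10.03 in Nampt+ samples, with a ratio of 0.466 and overlapping groups. ENSRNOG00000048159 (141062124 to 141062581) had an FPKM of 6.19, 6.27 and 16.3 in controls and of 5.08, 3.97, 3.98 and 5.49 in Nampt+ samples, with a ratio of 0.483 and no overlap. In both, control 3 was by far the highest sample. ENSRNOG00000048425 stayed called in 2 of 7 cases with a sample left out and lost its call without control 1, control 3 or Nampt+ 1, 3 or 4. ENSRNOG00000048159 stayed called in 1 of 7 such cases, the one without control 1, and under 3 of 12 other alternatives.

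The presence of variable rows on the constant gene side of the locus split the samples across the groups. The bound of this proximal part and the sides of the split were set after the values were seen, so what follows is a description. It holds 32 of the 74 variable rows, from 138535670 to 139747737, and surrounds Ighg1. Of these 32 rows, 19, 16 and 2 had no count in controls 1 to 3, 2, 5, 5 and 16 in Nampt++ samples 1 to 4, and 4, 6, 3 and 21 in Nampt+ samples 1 to 4. Controls 1 and 2 and both samples of rat 4 thus missed at least 16 rows each, and the other 7 samples at most 6. In the 42 distal rows the number at 0 was between 1 and 5 in all 11 samples. Proximal rows held 11.04% and 11.5% of the variable counts in controls 1 and 2 and 9.07% and 7.97% in the samples of rat 4, against 15.0% to 33.6% in the other samples.

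**Figure D4:**
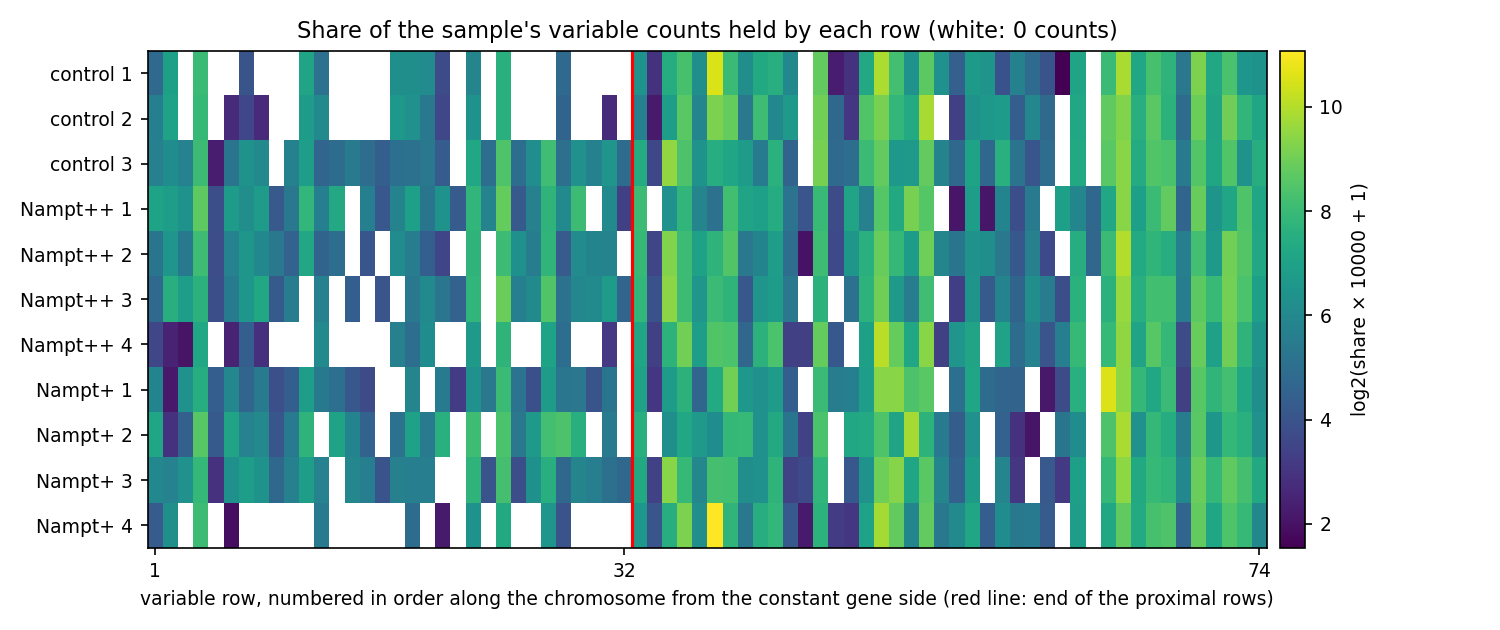
Share of each sample's variable counts held by each of the 74 variable rows, in order along the chromosome from the constant gene side (horizontal axis) and by sample (vertical axis), on a log2(share × 10000 + 1) colour scale with white for 0 counts and a red line after row 32. White cells crowd to the left of the line in control 1, control 2, Nampt++ 4 and Nampt+ 4.

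Rows low in the 4 samples on the low side were then counted. Of the variable rows, 15 had no count in any of these 4 samples, 14 of them in the proximal part. By another limit, 14 had at most 5 counts in each of these 4 samples and over 5 in at least 5 of the other 7, between 138564828 and 139719323 in the proximal part. The rows were picked for this pattern, which their place does not test. No variable row showed the opposite pattern, with at most 5 counts in each of the other 7 samples and over 5 in at least 3 of the 4. ENSRNOG00000053103 (139660206 to 139660666) had 0 counts in controls 1 and 2, Nampt++ 4 and Nampt+ 4, but 150 in control 3, 329, 92 and 55 in Nampt++ samples 1 to 3, and 43, 117 and 79 in Nampt+ samples 1 to 3. ENSRNOG00000057421 (139551751 to 139552182), on the same 4 samples at 0, had 136 counts in control 3, 62, 60 and 61 in Nampt++ samples 1 to 3, and 15, 64 and 108 in Nampt+ samples 1 to 3. Both rows were chosen after their values were seen. Among the samples of the low side, control 2 had the highest total count of the 11 libraries and Nampt++ 4 the lowest, and the part of depth was not tested. Both libraries of rat 4 fell on the same side at about day 8 and about day 14.

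**Figure D5:**
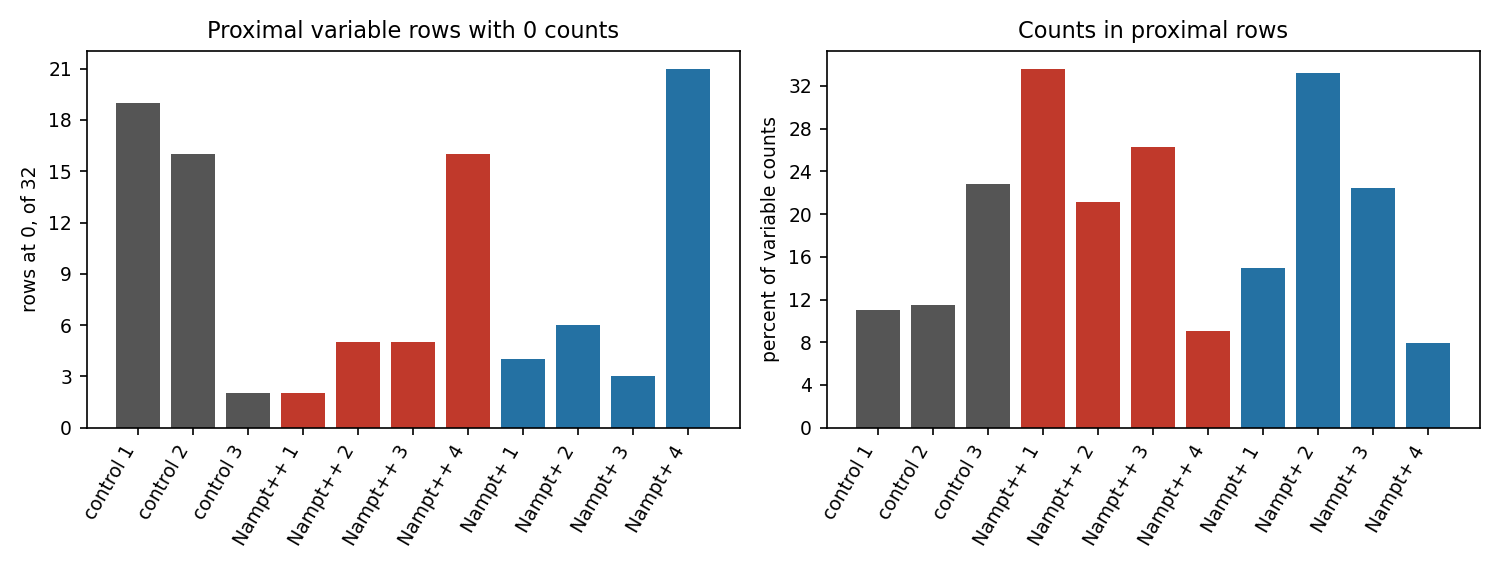
Number of the 32 proximal variable rows without a count (left) and percent of the variable counts in proximal rows (right) in each sample, with grey bars for controls, red for Nampt++ and blue for Nampt+ samples. Controls 1 and 2, Nampt++ 4 and Nampt+ 4 have 16 to 21 rows at 0 and the other samples 2 to 6.

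The low side of this split held 2 of 3 controls and 1 of 4 CIA rats. The median log2 fold change of the 32 proximal rows was 0.46 in Nampt++ and 0.59 in Nampt+ samples against controls, and that of the 42 distal rows was -0.14 and -0.06. Leaving out control 3 kept only controls of the low side. The median of the proximal rows was then 5.36 and 5.01, and that of the distal rows 0.20 and 0.21. Proximal rows called, all higher, went from 1 to 12 in Nampt++ and from 1 to 11 in Nampt+ samples. Since the bound and the sides came from the same values, these medians and counts test nothing, and the part of the split in the calls of variable rows was not tested. For Ighg1, control 3, on the side with more proximal rows, was at 5.73 FPKM, controls 1 and 2 at 6.83 and 3.02, and the samples of rat 4 at 25.7 and 10.4.

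Segment use was spread over many rows in all groups. The row with the most counts held 6.66% to 21.6% of a sample's variable counts, the 10 highest rows 43.8% to 63.9%, and 7 to 13 rows were needed to reach 50%. The 5 variable rows with the highest mean FPKM were ENSRNOG00000050143 (142635329 to 142676432), ENSRNOG00000055620, ENSRNOG00000058824 (141320809 to 141321108), ENSRNOG00000030812 (141146719 to 141147264) and ENSRNOG00000049315 (143065206 to 143065639). Over all variable rows the mean FPKM ranged from 0.162 to 24.7 with a median of 2.25. ENSRNOG00000050143 was the leading row in 5 samples and had an FPKM of 32.5, 9.53 and 36.0 in controls, 25.9, 39.5, 19.7 and 17.1 in Nampt++ samples, and 26.7, 19.7, 29.1 and 15.6 in Nampt+ samples, with overlapping groups. ENSRNOG00000058824 ranged from 18.4 to 31.6 in controls, from 9.50 to 26.1 in Nampt++ and from 5.80 to 21.9 in Nampt+ samples. ENSRNOG00000030812 ranged from 7.35 to 29.0, from 11.4 to 22.1 and from 6.32 to 28.2, and ENSRNOG00000049315 from 8.47 to 23.3, from 11.8 to 20.4 and from 9.63 to 22.5 in the same order.

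Some rows stood out in a single sample or in a few samples. ENSRNOG00000055620 had 1537 of 10488 variable counts in control 1 (14.7%) and 2351 of 10901 in Nampt+ 4 (21.6%), and its median share in the samples other than Nampt+ 4 was 2.38%. In the earlier sample of rat 4 it had 229 counts. ENSRNOG00000048062 (142584754 to 142585188) had 1697 of 11053 counts in Nampt+ 1 (15.4%) and 1.51% to 4.29% in every other sample, with 183 counts in Nampt++ 1. ENSRNOG00000050118 (140101861 to 140102325) had 1351, 797, 616 and 920 counts in control 3, Nampt++ 2, Nampt++ 3 and Nampt+ 3, and 48 to 192 in the other 7 samples, with 797 and 48 in the earlier and later samples labelled rat 2. Among 45 rows with at least 500 counts, 6 had a highest share at least 5 times the median share of the other samples. Rows named in these 3 places beyond the highest 5 were chosen after their values were seen.

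None of the 13 plasma cell genes tested and none of the 19 B cell genes was called in any comparison. Beside these, 1.42% of all tested genes were called in Nampt++ samples against controls, 1.17% in Nampt+ samples and 1.26% between the CIA groups. With lists this short, 0 calls say little. In edgeR's quasi-likelihood test 0, 0 and 1 genes of the plasma cell list had an unadjusted p under 0.05, and 1, 0 and 0 of the B cell list. Jchain, which joins the subunits of secreted IgM and IgA, had an FPKM of 187, 73.1 and 247 in controls, 182, 203, 162 and 147 in Nampt++ samples, and 160, 143, 271 and 175 in Nampt+ samples, so the controls spanned all but 1 CIA sample. Mzb1, a chaperone of antibody assembly, ranged from 14.6 to 42.6 in controls, from 21.3 to 33.3 in Nampt++ and from 18.6 to 31.8 in Nampt+ samples. Xbp1, a transcription factor of secretory cells, was at 142 in Nampt++ 1 and between 20.8 and 44.4 elsewhere. Ms4a1, the CD20 antigen of B cells, ranged from 18.3 to 81.5 in controls, from 21.8 to 36.1 in Nampt++ and from 20.4 to 53.0 in Nampt+ samples, with control 3 highest. The median log2 fold change of the B cell list was -0.38 and -0.21 against controls, with control 3 carrying the highest B cell sum. In this list 16 of 19 genes were below 0 in Nampt++ and 15 of 19 in Nampt+ samples. Among all 15968 genes tested, 7996 and 8275 were below 0. The part of control 3 in this shift was not tested. Of the 13 genes tested for class switching and hypermutation and the 5 for segment recombination, none was called.

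Of 16 B cell receptor signalling genes, 1 was called, lower in Nampt+ samples against controls and against Nampt++ samples. This was Syk, a kinase also used by myeloid cells, with an FPKM of 43.8, 41.5 and 16.6 in controls, 19.6, 39.7, 50.8 and 49.4 in Nampt++ samples, and 10.4, 6.38, 15.0 and 18.6 in Nampt+ samples. Of 70 light chain rows, 3 were called higher and 1 lower in each comparison with controls, and 2 higher and 1 lower between Nampt+ and Nampt++ samples. Of all tested genes, 0.645% were called higher and 0.77% lower in Nampt++ samples against controls. The shares were 0.501% and 0.67% in Nampt+ samples against controls, and 0.582% and 0.676% between Nampt+ and Nampt++ samples. Summed light chain FPKM ranged from 722 to 2480 in controls, from 1193 to 1706 in Nampt++ and from 1219 to 2022 in Nampt+ samples, so the groups overlapped. Other cell types varied beside these values. The sums of 10 T cell genes ranged from 375 to 1224 FPKM over the 11 samples and those of 9 monocyte genes from 4212 to 13764, with overlap between all groups, and their part in the values above was not tested. In the lists for T cells, neutrophils, monocytes, NK cells, platelets and erythroid cells, the calls were Ppbp, a platelet chemokine, lower in Nampt++ samples, and Gzma, a granzyme of cytotoxic cells, lower in Nampt+ samples, both against controls.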

How the data were processed

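Poly(A) RNA of rat WBCs was sequenced in 11 samples (3 control, 4 Nampt++, 4 Nampt+). The submitters' processing notes name cutadapt 1.9, HISAT2 2.0.4 and StringTie 1.3.4, and the genome build and the way reads were counted are not given in the sources used here. The authors deposited whole-number counts per gene, without normalization, and FPKM values, scaled by transcript length and library size, in which 0.0001 stands for 0 and was read as 0.

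Members and gene lists were chosen with earlier results of these data known. All 15968 genes with at least 50 counts over the 11 samples were tested, a pair of groups at a time, with edgeR 4.0.16 (quasi-likelihood test, TMM, R 4.3.3) on the deposited counts, with Benjamini-Hochberg adjustment. For the constant genes an exact two-sided permutation test of log2(FPKM + 1) was added, 9 tests in all, not adjusted over them. Sums and shares were given no test. DESeq2 1.42.0, limma 3.58.1 and other scalings, filters and folds were alternatives, and the fits were tested on simulated data. With 65340027 to 85819418 counts per sample, counting error matters only for variable rows with few counts, and precision is limited by the small number of rats.

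Genes named are the constant genes, the 5 variable rows highest in mean FPKM, up to 3 called highest and 3 called lowest in each comparison, the rows next to the count minimum, called genes of the lists, and Jchain, Mzb1, Xbp1 and Ms4a1. Cd79a was not found under this symbol. Equal numbers at Nampt++ and Nampt+ status mean the same rat, per the labels and methods, and the rat was a replicate block in an alternative. After subtraction of group means, their log2 CPM over 15968 genes correlated at -0.12, -0.11, 0.13 and 0.08 for rats 1 to 4. Controls share only numbers with the CIA rats. Replicates of a group differed by more than counting noise, the lowest chi-square over its degrees of freedom being 279.5. No sequences of the segments are given, since the reference tables used here hold none for them.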

Additional observations from a re-analysis of the deposited data

Results flagged for a closer look

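In 54 groups of 4 values, of which chance alone flags about 1 in 20, 4 had a sample far from the other samples. ENSRNOG00000055620 was at an FPKM of 89.99 in Nampt+ 4, against 1.73 to 14.6 in the other Nampt+ samples. ENSRNOG00000058824 was at 5.80 in Nampt+ 2, against 20.4 to 21.9. ENSRNOG00000049315 was at 20.4 in Nampt++ 1, against 11.8 to 13.3. ENSRNOG00000048425 was at 6.91 in Nampt++ 3, against 13.3 to 14.5. These 4 are variable rows, and no value of a constant gene or of a sum was flagged.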

How the results depend on the processing

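Ighg1 was past the thresholds in both comparisons with controls under all 19 alternatives each, with log2 fold changes from 1.76 to 2.20 for Nampt++ and from 1.49 to 2.13 for Nampt+ samples, and under none of 22 between Nampt+ and Nampt++ samples; its lowest adjusted p in Nampt+ samples against controls was 0.157 (DESeq2). Ighm and Igh-6 were called under no alternative. The number of members called was less stable. Against controls it was 6 for Nampt++ samples (beside 226 of all genes) and 2 with limma on log2(FPKM + 1) (beside 153). For Nampt+ samples it was 7 (beside 187), and 3 with that limma fit (beside 77). It was 4 (beside 56) where genes under a mean FPKM of 1 were left out, a filter that removes low rows. Leaving out each sample in turn gave 3 to 16 and 2 to 13. The highest values came without control 3 (beside 287 and 268 of all genes), where 12 and 11 of the called members were proximal rows. The lowest came without Nampt++ 1 (3, beside 213 genes) and Nampt+ 3 (2, beside 178). Others beyond 1.5 times came without Nampt++ 2 (10, beside 361), control 2 (4, beside 270) and Nampt+ 1 (4, beside 218). Between Nampt+ and Nampt++ samples it was 1 (beside 201 of all genes), and 4 with DESeq2 (beside 254). It was 2 with limma on log2(FPKM + 0.1) (beside 233), 0 with that filter (beside 72) and 2 without a filter (beside 295). With all groups in the fit it was 3 (beside 182), and without each sample 0 to 2 (beside 174 to 325). With the rat as a replicate block it was 0 (beside 101 of all genes). With the replicate block and both samples of rat 1 left out it was 2 (beside 185), while leaving these out without the block gave 1 (beside 280). Both fits without rat 1 were added after seeing the data. Against controls, where the numbers pair nothing, the block gave 4 and 5 (beside 86 and 99 of all genes). Of the called variable rows, ENSRNOG00000037495 in Nampt++ samples alone kept its call under all 19 alternatives. The cause of these shifts was not tested.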
